A study of Mus musculus with 7 samples.

Results

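Open chromatin was described at 5 genes that restrain immune attack: the checkpoint ligand genes Cd274 and Pdcd1lg2, the tryptophan-degrading enzyme gene Ido1, and the cytokine feedback inhibitor genes Socs1 and Socs3. They are 5 of 21627 protein-coding genes on chromosomes 1 to 19 and X. Peaks were taken as theirs if the summit lay in the gene body, or if the gene was the nearest protein-coding gene within 50 kb, and these peaks fell into 32 of 103809 merged regions. The cells were Lgr5+ intestinal stem cells sorted from female mice of 8 to 12 weeks that carry a GFP reporter of Lgr5 (strain B6-GFP-Lgr5), 7 days after bone marrow transplantation. Allo recipients (4 libraries) were given BALB/c marrow, and Syn recipients (3 libraries) were the syngeneic controls. Mice of both types had been lethally irradiated, and each library pooled 3 to 4 mice and 50000 sorted cells. The libraries were made by Omni-ATAC-seq, in which a transposase cuts adapters into accessible DNA, and the study asked how the chromatin of these cells differed in graft-versus-host disease. The labels do not say whether donor T cells were given. The 5 genes were chosen by measured values of these same lists, with the regions found in Allo alone at Cd274 and Socs1 known, so the values below describe them and no test was made on them.

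PD-L1, the product of Cd274, and PD-L2, the product of Pdcd1lg2, bind the receptor PD-1 on T cells and dampen their activity. Indoleamine 2,3-dioxygenase, the product of Ido1, turns tryptophan into kynurenine, which starves and restrains T cells. SOCS1 and SOCS3 bind cytokine receptors and their JAK kinases and stop the signal that induced them. Interferon-gamma induces Cd274, Ido1 and Socs1 through JAK kinases and IRF1, while Socs3 is best known as a target of STAT3 downstream of interleukin 6 and, in gut epithelium, interleukin 22.

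The RefSeq start site lay in open chromatin at Cd274, Socs1 and Socs3 and not at Pdcd1lg2. The 250 bases before each start site are shown because they are the promoter stretches that the peaks cover or miss, with matches to 4 searched motifs in capitals (RefSeq, GRCm38.p6, the same build as mm10, read 5′ to 3′ in the direction of the gene).
Cd274, chr19:29367188-29367437, plus strand: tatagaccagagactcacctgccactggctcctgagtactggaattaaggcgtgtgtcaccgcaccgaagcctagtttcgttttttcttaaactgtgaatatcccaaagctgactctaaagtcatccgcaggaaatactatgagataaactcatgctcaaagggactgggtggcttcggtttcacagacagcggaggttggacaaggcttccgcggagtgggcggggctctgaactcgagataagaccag
Pdcd1lg2, chr19:29410669-29410918, plus strand: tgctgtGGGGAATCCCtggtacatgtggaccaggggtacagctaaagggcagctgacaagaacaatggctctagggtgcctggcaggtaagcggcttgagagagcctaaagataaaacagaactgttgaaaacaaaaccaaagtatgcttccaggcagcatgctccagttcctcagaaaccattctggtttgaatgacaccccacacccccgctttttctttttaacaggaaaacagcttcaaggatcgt
Socs1, chr16:10785537-10785786, minus strand: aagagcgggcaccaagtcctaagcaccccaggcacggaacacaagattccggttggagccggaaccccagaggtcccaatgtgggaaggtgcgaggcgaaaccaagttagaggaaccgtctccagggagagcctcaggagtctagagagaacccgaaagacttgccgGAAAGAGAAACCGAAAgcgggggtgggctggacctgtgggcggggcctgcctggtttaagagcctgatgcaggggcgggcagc
Socs3, chr11:117969367-117969616, minus strand: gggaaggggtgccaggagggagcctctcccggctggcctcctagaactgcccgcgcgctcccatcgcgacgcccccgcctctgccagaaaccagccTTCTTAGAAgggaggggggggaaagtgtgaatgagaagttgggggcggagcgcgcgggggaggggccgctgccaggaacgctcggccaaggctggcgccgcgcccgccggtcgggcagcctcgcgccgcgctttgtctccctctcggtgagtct
The whole window of 300 bases, these 250 and the 50 from the start site on, lay inside peaks of all 7 libraries at Cd274, Socs1 and Socs3. At Pdcd1lg2 a peak touched it in 0 of 7 libraries. Promoters were matched for 4 of the 5 genes, and Ido1 is named only.

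Both strands were searched for GAS (TTCNNNGAA, the site of STAT dimers), the ISRE core (GAAA, any 2 bases, GAAA, read by IRF and ISGF3 factors), AP-1 (TGANTCA) and NF-kB. The capitals in Socs1 are 2 overlapping ISRE cores, GAAAGAGAAA at -83 to -74 and GAAACCGAAA at -77 to -68 from the start site, and both lay under a peak in 7 of 7 libraries. The closest summit, that of Syn 2 at 10785574, was 34.5 bp from the middle of the second. Main summits of the other libraries lay farther from it, at 10785461 to 10785503. The ISRE core occurs in 3.44% of the 32851 promoter windows of the table. Socs3 held 1 GAS match, TTCTTAGAA at -154 to -146, which peaks of 7 libraries covered, and GAS matches occur in 8.30% of windows. Pdcd1lg2 held 1 NF-kB match, GGGGAATCCC at -244 to -235, outside any peak, a motif found in 8.46% of windows. None of the 4 motifs matched in the window of Cd274, and AP-1, present in 7.81% of windows, matched at none of the 4 genes. These are matches of letters and not evidence of binding.

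Each library was represented by its own peak list, with 62977 to 88861 peaks in Allo and 71925 to 76438 in Syn. Each peak was given a rank percentile within its own list from the authors' −log10 q, with 100 for the best peak. The number of reads behind the lists is not known. Peaks of Allo 3 and Allo 4 carry another naming scheme than those of the other 5 libraries. Of 5 stem cell markers, Lgr5, Olfm4, Ascl2 and Smoc2 had a summit within 1 kb of a gene end in all 7 libraries and Axin2 in none. Of 12 leukocyte and myeloid markers, 7 had no such summit in any library, among them Ptprc, Cd3e, Cd3g, Adgre1, Csf1r and Zbtb46, and 4 had one in all 7 (Itgam, Itgax, Flt3 and Xcr1). No peak was assigned to Cd3g in any library. The 12 together held 3.02 to 3.83 peaks per 10000 in Allo and 3.06 to 3.53 in Syn. Cd68, a macrophage marker, had a gene-end summit in 4 Allo libraries and 1 Syn library, and the part of leukocytes in the results was not tested. In pooled cells, more cells with an open region and a more open region in each cell cannot be told apart.

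Across the 5 genes, 2 of 32 regions held a peak in all 4 Allo and no Syn library (Allo-only), against 1.14% of all merged regions, and 0 held one in all 3 Syn and no Allo library, against 1.01%. Another 17 regions were open in all 7 libraries, and 13 were open in a mixture of libraries. Of the 17, 3 had a higher rank percentile in every Allo than in every Syn library, a pattern of 8.06% of the 50324 regions that all 7 libraries share, and 0 had a lower one, against 6.58%. The patterns at Cd274 and Socs1 helped to choose the genes, so nothing is read from these shares. Per 10000 peaks, the 5 genes held 3.42 ± 0.33 (SD, n = 4) for Allo against 3.24 ± 0.28 (SD, n = 3) for Syn, which overlap. The difference of 0.18 was -0.08 without Allo 1 and 2, and it was 0.52 when every list was cut to the length of the shortest. It was 0.50 when peaks needed a −log10 q of 5 and 0.44 without Allo 3 and 4, and in these last settings the groups did not overlap.

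**Figure D1:**
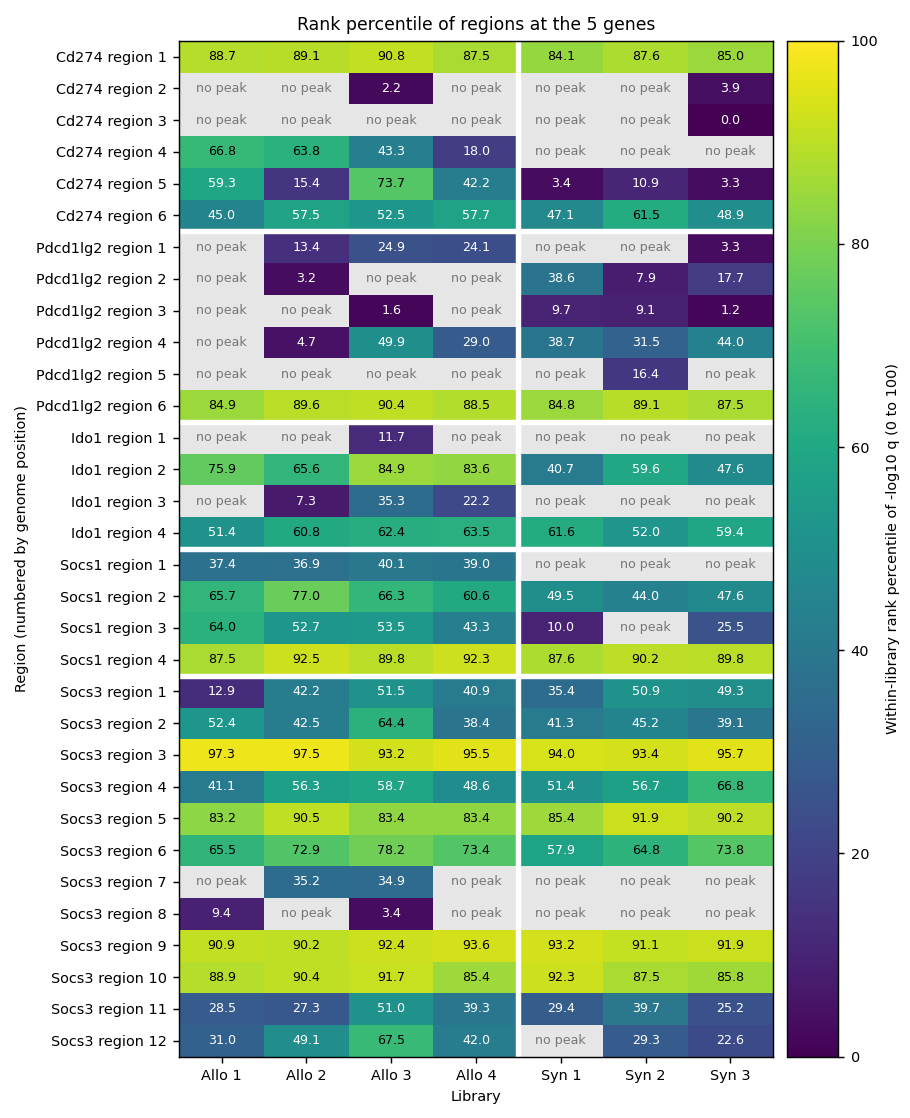
Within-library rank percentile of each of the 32 regions (rows, numbered by genome position within a gene) in the 4 Allo and 3 Syn libraries (columns). Grey cells hold no peak. Cd274 region 4 and Socs1 region 1 are filled in the 4 Allo columns and grey in the 3 Syn columns. Of the 12 rows of Socs3, 9 are filled in all 7 columns.

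Cd274 (chromosome 19, 29362107 to 29388095) had 6 regions, of which the one over its start site was open in every library. That region (chr19:29366900-29367762) stood at rank percentiles of 88.7, 89.1, 90.8 and 87.5 in Allo 1 to 4 and 84.1, 87.6 and 85.0 in Syn 1 to 3. The groups overlapped, since Allo 4 lay below Syn 2. Their means were 89.0 ± 1.35 (SD, n = 4) for Allo against 85.6 ± 1.85 (SD, n = 3) for Syn, and the difference was 3.45 percentile points ranked by q and -6.69 ranked by fold. The summits of the 7 libraries lay within 26 bp of each other, with a median 23 bp before the start site. The annotated body of Cd274 begins upstream of this start site, close to a region given to the neighbour Plgrkt, and exons and introns are not used here.

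Inside the gene, 9130 bp after the start site, lay the Allo-only region of Cd274 (chr19:29376394-29376748, region 4). Its rank percentile was 66.8, 63.8, 43.3 and 18.04 in Allo 1 to 4, and it had no peak in Syn 1, 2 or 3. The authors' fold over background at its summit was 7.49, 7.26, 5.69 and 4.48 in Allo 1 to 4. Allo 1 and 2 were thus high and Allo 4 low, although the summits of the 4 libraries fell within 12 bp. With lists cut to the shortest length, the region no longer held a peak in every Allo library.

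A second region within Cd274 (chr19:29384117-29384870, region 5), 17122 bp after the start site, was open in all libraries and of very unequal rank. It stood at 59.3, 15.4, 73.7 and 42.2 in Allo 1 to 4 and at 3.35, 10.9 and 3.31 in Syn 1 to 3. Every Allo library lay above every Syn library, with Allo 2 closest to them. The means were 47.7 ± 25.1 (SD, n = 4) for Allo against 5.85 ± 4.35 (SD, n = 3) for Syn, a difference of 41.8 percentile points, larger than either SD. Ranked by fold, the difference was 46.2 points, again without overlap. With a −log10 q of at least 5 or with lists of the shortest length, some libraries lost the peak, so that no difference over all 7 could be formed. The Syn peaks here had −log10 q values of 3.42, 5.26 and 3.79.

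The last region of Cd274 (chr19:29396203-29397123), 8390 bp past the end of the gene, averaged 53.2 ± 5.98 (SD, n = 4) for Allo against 52.5 ± 7.83 (SD, n = 3) for Syn, and the groups overlapped. Regions 2 and 3 were weak peaks of 1 or 2 libraries. The gene as a whole had 4, 4, 5 and 4 peaks in Allo 1 to 4 and 3, 3 and 5 in Syn 1 to 3 and the groups overlap. The summed rank of the gene, which adds the percentiles of its peaks divided by 100, was 2.38 ± 0.28 (SD, n = 4) for Allo against 1.45 ± 0.13 (SD, n = 3) for Syn, without overlap, as for 7.05% of genes with a peak in all 7 libraries, while 4.01% are lower in every Allo library. The difference was 0.93 ranked by q and 1.0 ranked by fold.

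**Figure D2:**
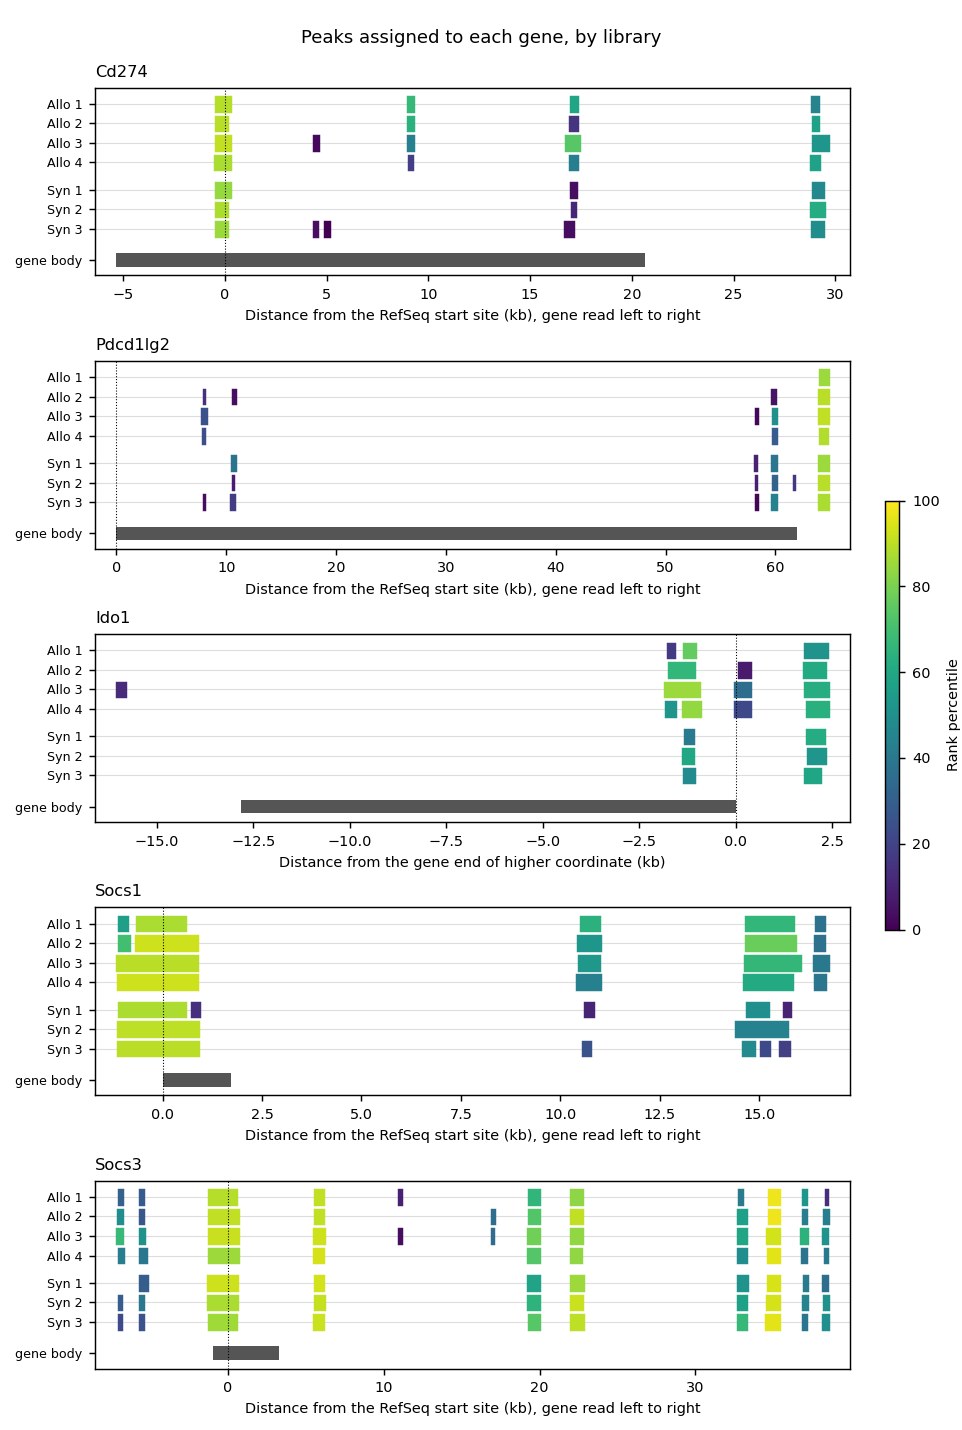
Peaks assigned to each gene, drawn per library against the distance from the RefSeq start site in kb (for Ido1, from the gene end of higher coordinate), with color for rank percentile and a grey bar for the gene body. Allo tracks show the extra peak of Cd274 at 9130 bp, and the Socs1 panel shows the region at 16540 bp that Syn tracks lack.

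Pdcd1lg2 (chromosome 19, 29410919 to 29472927), the neighbour of Cd274, had no region that separated Allo from Syn. Its 1 region open in all libraries (chr19:29474810-29475785) lay 2583 bp past the end of the gene, at 88.4 ± 2.40 (SD, n = 4) for Allo against 87.1 ± 2.17 (SD, n = 3) for Syn, with overlap. The other 5 regions, all in the gene body, were held by some libraries only. Region 4 (chr19:29470523-29471089) stood at 4.70, 49.9 and 29.0 in Allo 2, 3 and 4 and at 38.7, 31.5 and 44.0 in Syn 1 to 3, and Allo 1 lacked it. The groups overlapped there. Region 2 (chr19:29421292-29421789) was open in Allo 2 alone of the Allo libraries, at 3.18, and in Syn 1 to 3 at 38.6, 7.91 and 17.7. Region 1 (chr19:29418610-29419148) ran the other way, at 13.4, 24.9 and 24.1 in Allo 2 to 4 and at 3.31 in Syn 3. Allo 1 had a peak in neither, and it had 1 peak in the whole locus. Without Allo 2, region 2 held peaks in Syn alone, as region 3 (chr19:29469015-29469305) did without Allo 3.
Peaks of Pdcd1lg2 numbered 1, 4, 4 and 3 in Allo 1 to 4 and 4, 5 and 5 in Syn 1 to 3. The means were 3.00 ± 1.41 (SD, n = 4) for Allo against 4.67 ± 0.58 (SD, n = 3) for Syn, and the groups overlapped at 4. Allo 1 also has the shortest list, and its part in this count was not tested. The difference of -1.67 was between -2.17 and -0.75 over the 15 alternatives.

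Ido1 (chromosome 8, 24584133 to 24596952) had 1 region that separated Allo from Syn when ranked by q, near the gene end of higher coordinate. Region 2 (chr8:24595078-24596044) stood at 75.9, 65.6, 84.9 and 83.6 in Allo 1 to 4 and at 40.7, 59.6 and 47.6 in Syn 1 to 3. Each Allo library was above each Syn library, Allo 2 and Syn 2 being the closest. The means were 77.5 ± 8.88 (SD, n = 4) for Allo against 49.3 ± 9.53 (SD, n = 3) for Syn, a difference of 28.2 percentile points. Called sequence in the region averaged 740 bp in Allo and 289 bp in Syn, and Allo 1 and Allo 4 had a second summit at 24595270. The main summits of all 7 libraries fell within 44 bp. Ranked by fold, the difference was 9.98 points and the groups overlapped, with fold values of 6.54, 5.91, 7.23 and 7.91 in Allo and 4.87, 6.12 and 5.81 in Syn.

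Next to it, 251 bp past the same gene end, region 3 (chr8:24596895-24597354) was found in Allo alone but not in every Allo library, at 7.28, 35.3 and 22.2 in Allo 2, 3 and 4. Region 4 (chr8:24598705-24599362), 2027 bp past that end, did not separate the types, at 59.5 ± 5.56 (SD, n = 4) for Allo against 57.7 ± 5.0 (SD, n = 3) for Syn. By fold, region 4 was lower in every Allo library, by -25.1 points. Ido1 had 3, 3, 4 and 4 peaks in Allo 1 to 4 and 2 in each Syn library, without overlap, as for 2.33% of genes with a peak, while 1.27% have fewer in every Allo library. The third peak of Allo 1 was the second summit inside region 2, so by region Allo 1 had 2, as did each Syn library. The difference of 1.5 peaks was 1.25 with a −log10 q of at least 5 and 0.75 with lists of the shortest length, and in both settings the groups overlapped. The best peak of the gene ranked 77.5 ± 8.88 (SD, n = 4) for Allo against 60.2 ± 1.23 (SD, n = 3) for Syn, where 6.97% of genes lie higher and 4.07% lower in every Allo library. By fold that difference of 17.4 points changed sign, to -3.39. The summed rank of Ido1 was 1.44, 1.34, 1.94 and 2.22 in Allo 1 to 4 and 1.02, 1.12 and 1.07 in Syn 1 to 3, without overlap. Of genes with a peak in all 7 libraries, 7.05% are higher and 4.01% lower in every Allo library. The difference of 0.66 in summed rank was 0.08 by fold, where the groups overlapped.

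Socs1 (chromosome 16, 10783808 to 10785536), ranked by q, differed downstream of the gene and not at its start. The start-site region (chr16:10784599-10786697) stood at 87.5, 92.5, 89.8 and 92.3 in Allo 1 to 4 and at 87.6, 90.2 and 89.8 in Syn 1 to 3. The groups overlapped, with means of 90.5 ± 2.38 (SD, n = 4) for Allo against 89.2 ± 1.39 (SD, n = 3) for Syn. Ranked by fold, the within-library percentile was lower here in every Allo library, by -12.4 points on average. The fold values themselves overlapped, at 5.13, 5.91, 4.95 and 5.86 in Allo 1 to 4 and 5.79, 5.90 and 6.17 in Syn 1 to 3. This is the region that holds the ISRE cores.

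The Allo-only region of Socs1 (chr16:10768788-10769181, region 1) lay 16540 bp after the start site. It stood at 37.4, 36.9, 40.1 and 39.0 in Allo 1 to 4, with no peak in the 3 Syn libraries. Those 4 values are close together, with an SD of 1.48, and the 4 summits fell within 26 bp. Assignment within 10 kb leaves the region without a gene.

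Its neighbour, region 2 (chr16:10769495-10771145), was open in all libraries but differed in rank and in the position of the best summit. It stood at 65.7, 77.0, 66.3 and 60.6 in Allo 1 to 4 and at 49.5, 44.0 and 47.6 in Syn 1 to 3. The groups were well apart, with means of 67.4 ± 6.91 (SD, n = 4) for Allo against 47.0 ± 2.82 (SD, n = 3) for Syn. Ranked by fold the difference of 20.4 points changed sign, to -0.93 with overlap. In Allo each library had a single peak of 1244 to 1437 bp with its summit between 10769863 and 10769883. Syn 2 also had a single peak, of 1342 bp, while Syn 1 and Syn 3 had separate peaks. In Syn the best summit lay between 10770774 and 10770803, so that the Allo median minus the Syn median was -925 bp. Syn 1 and Syn 3 also had a summit at the Allo position, at 10769851 and 10769884, in separate peaks with −log10 q values of 4.92 and 6.96, against 21.6 to 35.1 for the Allo peaks.

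Region 3 (chr16:10774518-10775147), 10680 bp after the start site, ranked 64.0, 52.7, 53.5 and 43.3 in Allo 1 to 4 and 9.95 and 25.5 in Syn 1 and Syn 3. Syn 2 had no peak there, and both Syn peaks ranked below the lowest Allo peak. Peaks of Socs1 numbered 5, 5, 4 and 4 in Allo 1 to 4 and 5, 2 and 5 in Syn 1 to 3, with overlap. The summed rank of the gene was 2.81 ± 0.46 (SD, n = 4) for Allo against 1.69 ± 0.35 (SD, n = 3) for Syn, without overlap, as for 7.05% of genes, and its difference of 1.12 was 0.16 with overlap when peaks were ranked by fold.

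**Figure D3:**
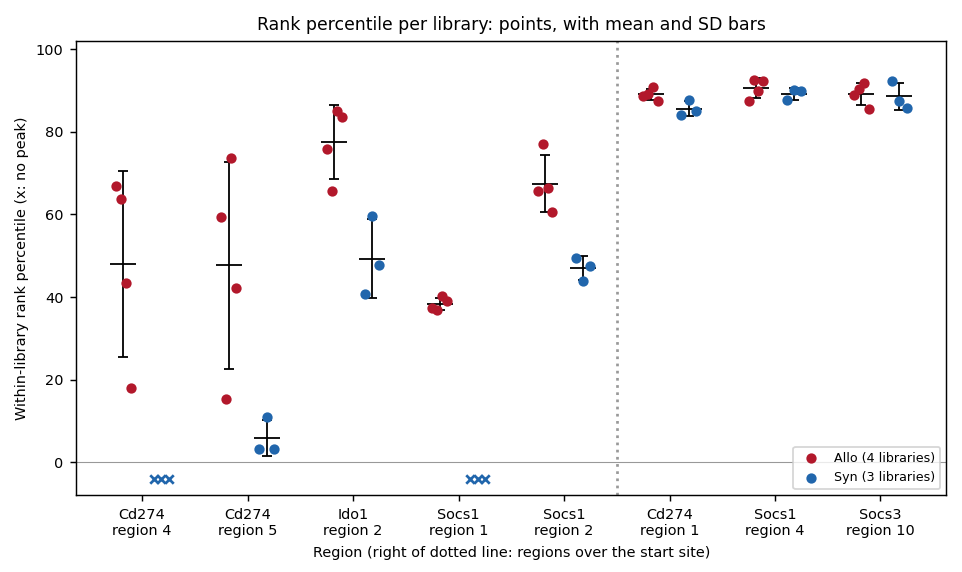
Rank percentile per library (y axis) in the 5 regions that separated Allo from Syn and in the start-site regions of Cd274, Socs1 and Socs3, with mean and SD bars and crosses for libraries without a peak. Start-site regions lie between 84.1 and 92.5 in both groups, and in the 5 regions to the left every Allo point lies above every Syn point or the Syn libraries have no peak.

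Socs3 (chromosome 11, 117966079 to 117970336) had the most regions, 12, and none that separated the types. Of these, 9 were open in all 7 libraries, and in each of the 9 the Allo and Syn ranges overlapped. The start-site region (chr11:117968662-117970703) averaged 89.1 ± 2.70 (SD, n = 4) for Allo against 88.5 ± 3.37 (SD, n = 3) for Syn. The best ranked was region 3 (chr11:117933928-117934875), 34998 bp after the start site, at 97.3, 97.5, 93.2 and 95.5 in Allo 1 to 4 and 94.0, 93.4 and 95.7 in Syn 1 to 3. No library stood apart there. Region 9 (chr11:117963164-117963943), 5751 bp after the start site, averaged 91.8 ± 1.51 (SD, n = 4) for Allo against 92.1 ± 1.06 (SD, n = 3) for Syn.

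Differences of the 9 shared regions of Socs3 ran from -8.33 to 7.54 percentile points and went both ways. Region 1 (chr11:117930810-117931234) was lower in Allo on average, at 36.9 ± 16.7 (SD, n = 4) for Allo against 45.2 ± 8.54 (SD, n = 3) for Syn, with Allo 1 alone at 12.9. Region 6 (chr11:117949346-117950160) was higher on average, at 72.5 ± 5.26 (SD, n = 4) for Allo against 65.5 ± 7.97 (SD, n = 3) for Syn. The difference of region 1, -8.33 points, was smaller than either SD. That of region 6, 7.02 points, was larger than the Allo SD and smaller than the Syn SD. Without Syn 3 it was 11.2 points and the groups did not overlap. Region 12 (chr11:117976027-117976528), at -6896 bp from the start site, ranked 31.0, 49.1, 67.5 and 42.0 in Allo 1 to 4. It ranked 29.3 and 22.6 in Syn 2 and Syn 3, below every Allo value, and Syn 1 lacked it. Regions 7 and 8 were each held by 2 Allo libraries and by 0 Syn libraries. Socs3 had 11, 11, 12 and 10 peaks in Allo 1 to 4 and 9, 10 and 10 in Syn 1 to 3, which meet at 10.

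On the scale of rank percentile, the best peak of Socs3 averaged 95.2 ± 1.75 over the libraries (SD, n = 7), that of Socs1 89.9 ± 2.00, of Pdcd1lg2 87.8 ± 2.21, of Cd274 87.5 ± 2.33 and of Ido1 70.1 ± 11.2. Pdcd1lg2 and Cd274 are neighbours in that order whose means differ by less than their SDs, while Ido1 is lowest. The means of Socs1 and Pdcd1lg2 differ by more than the SD of Socs1 and by less than that of Pdcd1lg2. The SD of Ido1 over the 7 libraries includes its difference between the types, and within Syn it was 1.23. The 5 regions that separated the types averaged 38.3 to 77.5 in Allo and lay away from the RefSeq start sites shown above, which for Ido1 was not placed. Ranked by q, the start-site regions overlapped between types for all 3 genes that have one in a peak. Ranked by fold, the percentile of that of Socs1 was lower in every Allo library, by -12.4 points on average, although the fold values themselves overlapped. The 17 shared regions had a median difference of 1.52 percentile points, against 0.44 over all 50324 shared regions, of which the middle 90% lay between -16.5 and 17.6. Cd274 region 5, Ido1 region 2 and Socs1 region 2 lay above that upper value, and the other 14 lay inside.

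**Figure D4:**
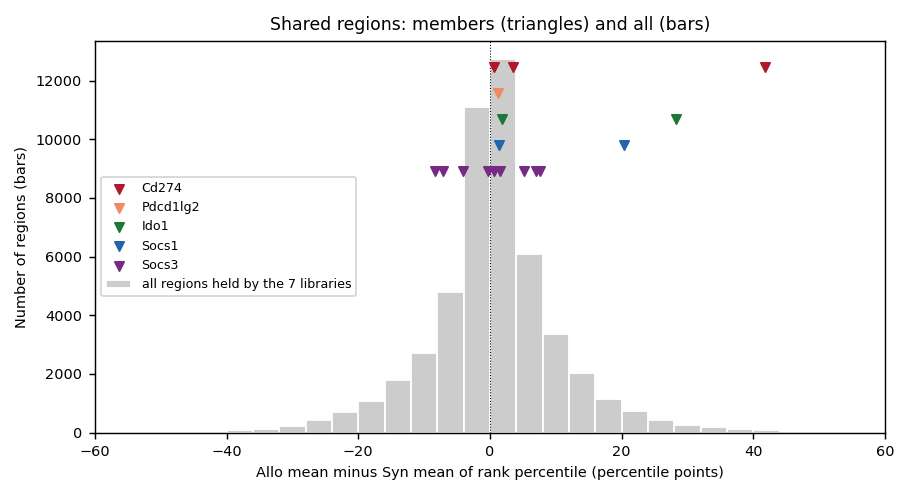
Allo mean minus Syn mean of rank percentile (x axis, percentile points) for all 50324 regions that the 7 libraries share (grey bars, number of regions) and for the 17 shared regions of the 5 genes (colored triangles, one height per gene). Triangles of Cd274, Ido1 and Socs1 stand right at 41.8, 28.2 and 20.4, and those of Socs3 lie on both sides of 0.

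The assignment rule ends at neighbouring genes. Distances here are from a region's median summit to the gene body. Just outside the rule, 196 bp from the body of Cd274, a region given to Plgrkt ranked 95.7 to 97.8 in Allo and 96.9 to 97.7 in Syn. That region (chr19:29360727-29362474) itself runs into the annotated body of Cd274. Beside Ido1, a region given to Ido2 (chr8:24573790-24574407) ranked 20.1, 17.1, 20.2 and 7.02 in Allo 1 to 4 and was absent in Syn. Beside Socs1, a region given to Tnp2 (chr16:10787031-10787633), 1624 bp from Socs1, ranked 24.7, 29.0 and 29.7 in Allo 1, 2 and 3 and was absent in Syn. On the other side of Socs1, a region given to Clec16a ranked 64.4, 29.0, 55.7 and 40.8 in Allo 1 to 4 and 9.23 and 6.87 in Syn 1 and 2, and Syn 3 lacked it. Beside Socs3, 51343 bp away, a region given to Tha1 ranked 38.7, 55.2, 55.6 and 54.3 in Allo 1 to 4 and 38.3, 36.9 and 25.2 in Syn 1 to 3, each Allo value above each Syn value. Of all regions held by the 7 libraries, 8.06% rank higher and 6.58% lower in every Allo library. Just inside, the farthest regions were Socs3 region 1 at 35103 bp and Socs1 region 1 at 14812 bp from the gene.

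Genes were also sought whose summed rank followed that of each member over the 7 libraries, by Pearson's r among 15115 other genes with a peak in every library. With so many genes and 7 points, high values are common, and r is given as a description. Closest to Cd274 were Ppip5k1, Adar, which encodes an RNA-editing enzyme, and Orm1, with r of 0.983, 0.982 and 0.980, and 77 genes exceeded 0.9. Closest to Ido1 were Znhit6, Spsb4 and Angel1, with r of 0.995, 0.992 and 0.991, among 511 genes above 0.9. For Socs1 they were Iqgap3, Ica1l and Acyp2, with r of 0.968, 0.963 and 0.961, among 23. For Pdcd1lg2 they were Zfp341, Slc14a1 and Dnah7b, from 0.980 to 0.990, and for Socs3 they were Prom1, Arhgdig and Anks1b, from 0.985 to 0.998.

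Other genes of the same pathways were listed with earlier results known, and the counts of the lists below include the 5 genes. Of 15 matched checkpoint ligand genes, Cd274 was the 1 with an Allo-only region and 0 had a Syn-only region, where 5.47% and 4.39% of all genes with a region have one. Of 54 shared regions of that list, 8 ranked higher and 2 lower in every Allo library, where 8.06% and 6.58% of all shared regions do. Of the 8 SOCS family genes, Socs1 alone had an Allo-only region, and of 32 shared regions 2 ranked higher and 2 lower in every Allo library. The 9 other inhibitors of JAK-STAT signaling, PIAS proteins, tyrosine phosphatases and Usp18, had no Allo-only or Syn-only region, and 7 of their 28 shared regions ranked higher in every Allo library and 3 lower, beside the same 8.06% and 6.58%. The medians of the shared differences were 1.53 points for checkpoint ligands, 1.07 for the SOCS family and 2.05 for the other inhibitors.

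Of 13 genes of tryptophan and arginine catabolism, Ido2, the paralog of Ido1, and Kyat3, a kynurenine aminotransferase, had Allo-only regions. The stronger one in Ido2 (chr8:24568433-24569435) ranked 54.8, 42.6, 67.2 and 59.96 in Allo 1 to 4. That of Kyat3 was weak, at 10.6, 11.9, 17.7 and 16.1. Of 37 shared regions of this list, 2 ranked higher and 3 lower in every Allo library, with a median difference of 1.67 points.
Among 16 receptors, kinases and transcription factors upstream, Irf1 and Irf9 had Allo-only regions and Il6st, the shared signaling subunit gp130 of the interleukin 6 receptor family, a Syn-only one. Irf1, an interferon-induced transcription factor, had 3, of which the best ranked by mean (chr11:53759564-53759824) stood at 29.1, 35.1, 27.5 and 21.4 in Allo 1 to 4. Irf9, a subunit of ISGF3, had 2, and the better one (chr14:55612700-55613167) stood at 47.8, 47.6, 51.6 and 36.5. The region of Il6st (chr13:112511887-112512194) was weak in Syn, at 5.57, 5.24 and 11.1. Over all genes with a region, 5.47% have an Allo-only and 4.39% a Syn-only one. Of 73 shared regions, 5 ranked higher and 2 lower in every Allo library, beside 8.06% and 6.58% of all shared regions, with a median difference of 0.74 points. Apart from the 5 genes, 4 genes of all lists had an Allo-only region and 1 a Syn-only one, and these counts were 21 and 4 without Allo 1 and 2. Leaving out libraries makes both patterns easier to meet, and the share of all genes was not computed there. Leaving out 1 library at a time gave 4 to 9 genes (9 without Allo 1) and 1 to 4 genes (4 without Allo 2 and 4 without Syn 1).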

How the data were processed

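The data are the peak lists that the authors deposited for the 7 libraries, with 10 columns and no header. Per the submitters' processing notes, mm10 was the build and the tools were Bowtie2, Trim Galore, MACS3 and MACS2, listed without roles. Per the layout of the deposited columns, each peak has a score, a fold over background, a −log10 p, a −log10 q and a summit, each of them the authors' own value for the peak. Calling threshold, read shift and extension, which set peak widths and ranks, could not be taken from the labels, and 1.30 was the lowest −log10 q deposited. Depth is unknown, so no interval is given.

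Peaks were ranked within each library by −log10 q, those overlapping by at least 1 bp across libraries were merged, and a region's percentile is that of the library's best peak in it. Gene positions are those of RefSeq on GRCm38.p6, the build of mm10. The 5 genes, the lists of 62 entries (1, Hhla2, unmatched) and the rule for named genes (all regions of the members, the 3 closest genes each, list genes with separating regions, neighbours) were chosen with earlier results of these data known, and the result was described without tests. Labels call each library an independent pool. Merging, counting and assignment were tested on simulated data. Python 3.11.15, numpy 2.4.6, pandas 2.3.3 and matplotlib 3.10.9 were used. The alternatives set a −log10 q minimum of 5, cut lists to the shortest length (62977), used fixed summit windows, or required 50% coverage of a region, assignment within 10 kb or ranking by fold, and each library, Allo 1 and 2, or Allo 3 and 4 were left out. NF-kB was searched as GGG, A or G, any 2 bases, 2 of C or T, CC.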

Additional observations from a re-analysis of the deposited data

Results flagged for a closer look

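Of 37 sets of 4 Allo values, 2 held a library that stood apart. The rule was set for about 1 set in 20 by chance, a rate that does not hold here. Some sets are whole-number peak counts, and the best peak of a gene repeats the values of a region. At Socs3 region 5 (chr11:117946515-117947428), Allo 2 stood at a rank percentile of 90.5, above 83.2, 83.4 and 83.4 in the other Allo libraries and within the 85.4 to 91.9 of the Syn libraries. Cd274 had 5 peaks in Allo 3 and 4 in each other Allo library, a difference of 1 weak peak, and Syn libraries had 3, 3 and 5.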

How the results depend on the processing

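No paired analysis was possible because the labels call each library an independent pool, and the values at the 5 genes come from no test. The count of 2 Allo-only regions was 1 with lists of the shortest length and 1 with assignment within 10 kb, and 4 when peaks had to cover 50% of a region, where Ido1 region 2 and Socs1 region 3 joined. The count of 3 shared regions higher in every Allo library was 0 with 50% coverage, 1 ranked by fold and 5 without Allo 3 and 4. The count of 0 lower ones was 2 ranked by fold (Ido1 region 4 and Socs1 region 4), and 1 when either Allo pair was left out. No region was Syn-only in the main setting, and 1 was when either pair, Allo 3 and 4 or Allo 1 and 2, was left out. The difference of 0.18 in peaks per 10000 was 0.50 with a −log10 q of at least 5 and 0.52 with the shortest length. Other list genes with an Allo-only region, 4 in all, were 7 with a −log10 q of at least 5 and 21 without Allo 1 and 2. Those with a Syn-only region, 1 in all, were 4 with the shortest length, 2 with 50% coverage and 4 when either Allo pair was left out. The share of all genes was not computed for these settings, and both patterns are easier to meet with fewer libraries. Ranked by fold, Socs1 region 2 turned to -0.93 and the best peak of Ido1 to -3.39. The cause was not tested. Leaving out 1 library at a time gave 2 to 3 Allo-only regions, 0 to 1 Syn-only regions (1 without Allo 2 and 1 without Allo 3, both in Pdcd1lg2), 3 to 5 higher (5 without Syn 2), 0 to 1 lower (1 without Allo 2), 4 to 9 other list genes with an Allo-only region (9 without Allo 1), 1 to 4 with a Syn-only region (4 without Allo 2 or Syn 1) and a difference of 0.05 to 0.33 in peaks per 10000. Fixed summit windows changed none of these counts. Unknown read depth limits what an absent peak means, since a region can miss the calling threshold.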

Other observations

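Krt20, a marker of mature epithelium, had a summit within 1 kb of a gene end in 3 of 4 Allo and 0 of 3 Syn libraries. Its assigned peaks were about as many in both groups, 7, 8, 7 and 7 in Allo 1 to 4 and 7 in each Syn library. The other 4 epithelial markers, Epcam, Cdh1, Krt8 and Vil1, had one in all 7.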
